A study of Mus musculus with 8 samples.

Results

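Coinhibitory receptors are surface proteins of T cells that hold back activation. The 6 genes described here, Pdcd1, Lag3, Tigit, Cd160, Ctla4 and Cd200, were chosen by gene symbol, with earlier results of these data known. Shares over all genes set beside them are therefore a description. All 6 of 6 had a row in every library, among 13073 genes listed in at least 1 of the systems studied. RNA was sequenced from mouse thymocytes in 4 groups of 2 libraries each. All mice carried Bcl6fl/fl, a loxP-flanked allele of the transcriptional repressor gene Bcl6. The libraries labelled KO also carried Cd4cre, a Cre recombinase under control of Cd4 sequences, active in the T lineage. In the in vitro system, sorted CD4+CD8+ double-positive thymocytes were cultured for 24 h with anti-CD3 (8 µg/ml) and anti-CD28 (8 µg/ml), and the cells that had lost both coreceptors were then sorted as double-negative (DN). In the in vivo system, CD4-CD8-CD5+TCRb+ thymocytes were sorted without culture. This gate holds agonist-selected precursors of CD8αα intraepithelial lymphocytes. The labels give no ages, and the source animals or cultures of the replicates are not stated, so p-values reflect only the spread between these libraries, which may be technical.

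PD-1, the product of Pdcd1, damps T cell receptor signals by bringing phosphatases to the receptor. Most coinhibitory receptors are induced by T cell receptor stimulation, and PD-1 is a known mark of thymocytes that met strong agonist self-ligand. LAG-3 is a CD4-related receptor that binds MHC class II. CTLA-4 competes with CD28 for CD80 and CD86, TIGIT competes with CD226 for CD155, and CD160 binds the TNF-receptor family member HVEM. CD200 is a membrane glycoprotein that acts as the ligand of the inhibitory receptor CD200R.

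Total counts ranged from 14754440 to 23975636 per library. Bcl6 itself did not check the labels. Its FPKM (fragments per kilobase of gene and per library size, a level scaled by gene length) was 64.6 and 61.0 in the KO-labelled and 24.9 and 21.9 in the WT-labelled in vitro libraries. In vivo it was 8.81 and 14.4 under KO and 11.5 and 13.9 under WT. A count for the whole gene cannot show whether the deleted part is missing, so groups are named by their labels, and every direction is that of the KO-labelled libraries relative to the WT-labelled ones. The CD3 chain gene Cd3e was at 88.8 to 123 FPKM in all libraries. In vitro it fell by the edgeR test described below, at 93.1 and 88.8 under KO, against 115.7 and 106.9 under WT. It is 1 of 9 listed αβ T cell identity genes, of which 7 were tested in each system. In vitro 3 of the 7 rose, Thy1, Cd247 and Cd2, and 1 fell. Thy1 had 20.9 and 18.01 FPKM under KO in vitro, against 3.06 and 4.56 under WT. In vivo 0 of the 7 passed with edgeR, and 1, Thy1, with DESeq2. Transcripts of the coreceptors absent from the sort gates were detected, Cd8a at 7.26 to 10.9 FPKM in vitro and 1.17 to 3.49 in vivo, and Cd4 at 6.84 to 11.4 in vitro and 22.8 to 78.4 in vivo. Trbc1 and Trbc2, genes of the αβ receptor itself, had no row in either system and were not analysed.

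The starts of the genes that fell in both systems are shown because these members passed the test in the same direction in both. RefSeq promoter windows of GRCm38.p6 (mm10), from 250 bases before to 50 bases after the transcript start, matched 5 of the 6 members. Lag3 had no entry. Capitals mark every match to 5 motifs searched on both strands: TTCNNNGAA, the palindrome bound by BCL6 and STAT factors, AAAGGTCA, the NR4A site, TGANTCA, the AP-1 site, GGAAA, the NFAT core, and TGTGGT, the RUNX core. Pdcd1 is read from chr1:94052504-94052803, Tigit from chr16:43664135-43664434, and the 2 starts of Cd160 from chr3:96829302-96829601 and chr3:96814472-96814771, all on the minus strand and printed 5′ to 3′.
Pdcd1: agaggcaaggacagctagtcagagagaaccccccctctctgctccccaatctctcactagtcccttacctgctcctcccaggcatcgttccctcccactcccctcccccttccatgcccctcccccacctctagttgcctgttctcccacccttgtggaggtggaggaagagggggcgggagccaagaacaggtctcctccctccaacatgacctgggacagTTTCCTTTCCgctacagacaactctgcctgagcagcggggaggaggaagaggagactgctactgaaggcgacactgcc
Tigit: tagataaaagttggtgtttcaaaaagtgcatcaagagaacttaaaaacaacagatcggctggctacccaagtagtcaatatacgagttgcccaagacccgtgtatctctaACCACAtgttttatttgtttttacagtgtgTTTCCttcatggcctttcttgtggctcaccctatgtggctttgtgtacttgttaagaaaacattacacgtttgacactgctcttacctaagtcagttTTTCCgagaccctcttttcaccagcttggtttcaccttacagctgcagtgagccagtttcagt
Cd160, upstream start: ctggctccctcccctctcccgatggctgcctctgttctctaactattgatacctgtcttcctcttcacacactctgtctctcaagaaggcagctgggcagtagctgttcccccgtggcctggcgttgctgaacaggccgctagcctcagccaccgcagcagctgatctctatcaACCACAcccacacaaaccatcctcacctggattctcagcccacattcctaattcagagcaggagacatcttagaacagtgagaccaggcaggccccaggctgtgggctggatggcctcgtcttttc
Cd160, downstream start: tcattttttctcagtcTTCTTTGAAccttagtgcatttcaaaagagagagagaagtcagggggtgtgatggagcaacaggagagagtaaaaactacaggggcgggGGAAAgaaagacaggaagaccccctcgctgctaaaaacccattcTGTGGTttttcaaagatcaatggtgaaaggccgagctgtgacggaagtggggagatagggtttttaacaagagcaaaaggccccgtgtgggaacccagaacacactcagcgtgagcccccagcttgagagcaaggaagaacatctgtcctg

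The BCL6 and STAT palindrome occurred in 1 of these windows, that of the downstream Cd160 start, beginning at base -234 relative to the start. Of all 32851 promoter windows of the same length, 8.30% held it. The NFAT core occurred in the Pdcd1 window at -28 and -23, directly next to each other, in the Tigit window at -110 and -13, and in the downstream Cd160 window at -145. It is common, with 61.3% of all windows holding it. The RUNX core, held by 16.8% of all windows, occurred in the Tigit window at -140 and in the Cd160 windows at -76 and -101. The Ctla4 window held 1 NFAT core at -144 and the Cd200 window held 0 matches. No member window held the NR4A site (1.51% of all windows) or the AP-1 site (7.81%). A match is a run of letters, not a measured binding site, and the windows cover 300 bases at each start only.

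The in vitro comparison asks how the labelled loss of BCL6 changes stimulated double-positive cells that become DN. Of the 6 members 5 fell and 1 rose in the KO-labelled libraries by the quasi-likelihood test of edgeR, with a Benjamini-Hochberg threshold of 0.05 over all 9658 genes tested. Among all tested genes 17.7% fell and 20.1% rose, 37.8% together. The median log2 fold change of the 6 was -0.82, beside 0.00 over all tested genes. Both KO-labelled libraries lay below both WT-labelled ones at 5 members, an arrangement found at 38.6% of all tested genes, and above them at 1, as at 32.5%. Groups that did not overlap were thus found at 6 members and at 71.1% of all tested genes. As the members were chosen with earlier results of these data known, these shares do not measure an excess.

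**Figure D1:**
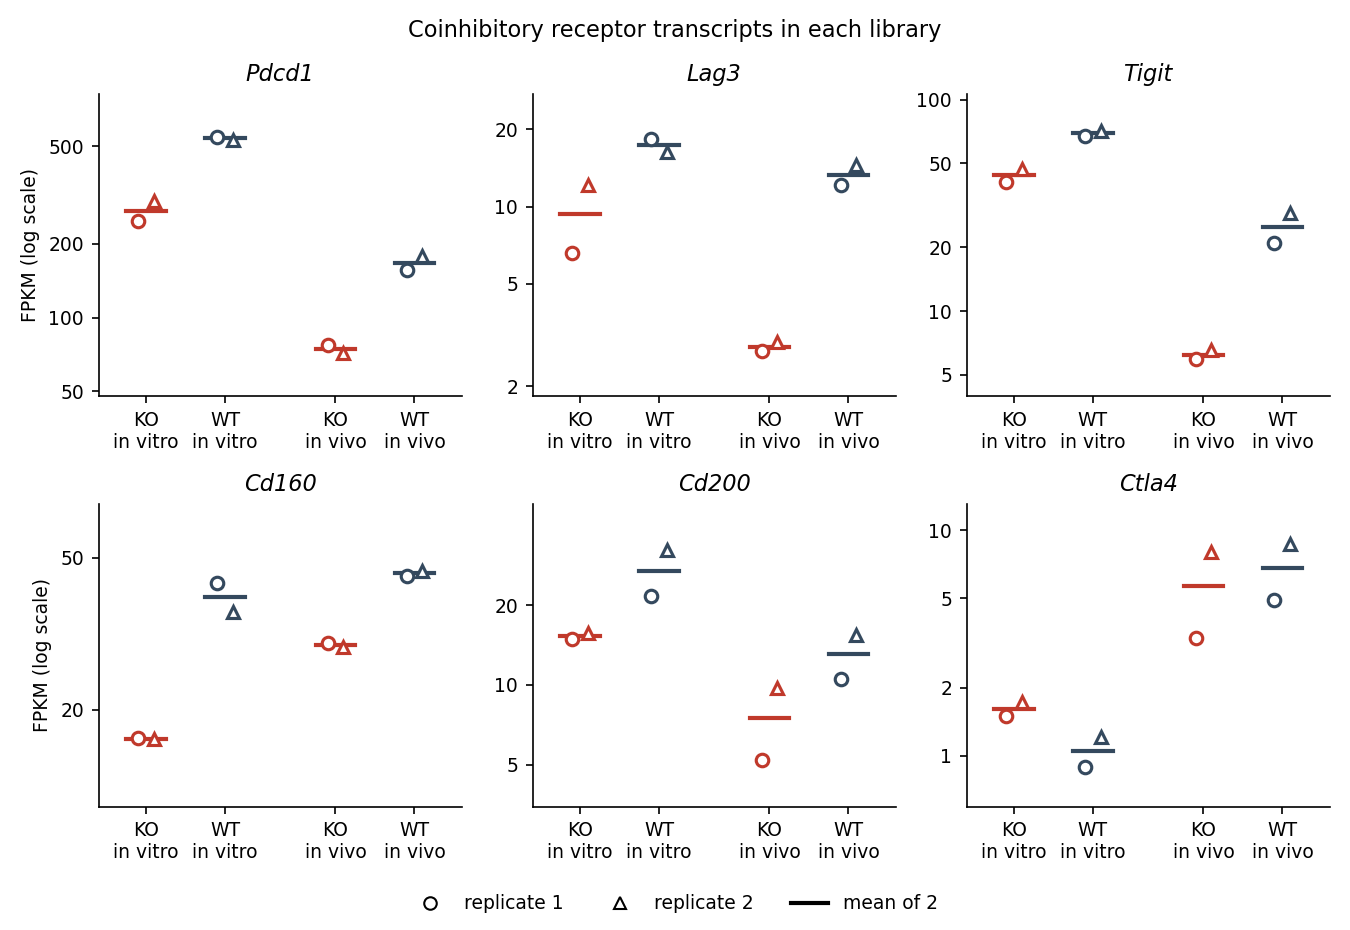
FPKM of the 6 coinhibitory receptor genes (vertical axes, log scale) in each library, with KO-labelled libraries left of WT-labelled ones in each system, circles for replicate 1, triangles for replicate 2 and a bar at the mean of 2. Pdcd1 in vitro sits at 248 and 298 under KO and at 547 and 531 under WT, and Ctla4 in vivo is the 1 case in which the groups overlap.

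Pdcd1, which encodes PD-1, occupies bases 94038305 to 94052553 of chromosome 1 (mm10, minus strand). It had 248 and 298 FPKM in the KO-labelled in vitro libraries, against 547 and 531 in the WT-labelled ones. The groups did not overlap. It was among the most abundant transcripts of these cells, ranking 107th and 91st of 12133 genes by FPKM in the KO-labelled libraries and 55th and 44th in the WT-labelled ones. The log2 fold change was -0.96 (SE 0.11, n = 2 per group, edgeR adjusted p = 9.11e-05), which is 48.5% lower.

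Cd160 had the lowest log2 fold change of the 6 in vitro. It occupies bases 96798763 to 96829351 of chromosome 3 (minus strand). Its FPKM was 16.9 and 16.7 under KO, nearly equal, against 43.0 and 36.0 under WT. Its log2 fold change was -1.21 (SE 0.10, edgeR adjusted p = 8.70e-06). Pdzk1, on the opposite strand, overlaps this gene, and whether counting used strand is not given in the sources used here. Pdzk1 had 11 and 13 counts under KO and 17 and 14 under WT, beside 790 and 960 for Cd160 under KO and 2726 and 1556 under WT.

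Lag3 and Tigit fell as well. Lag3, at bases 124904361 to 124911705 of chromosome 6 (minus strand), had 6.60 and 12.2 FPKM under KO, against 18.4 and 16.3 under WT. The KO-labelled replicates differed 1.85-fold, more than in any other in vitro group of these 6 genes. The log2 fold change was -0.85 (SE 0.20, edgeR adjusted p = 0.00744). With DESeq2 the adjusted p was 0.119, and without KO replicate 2 or KO replicate 1 the log2 fold change was -1.37 or -0.49. Tigit, at bases 43648867 to 43664146 of chromosome 16 (minus strand), had 41.0 and 47.0 FPKM under KO, against 67.5 and 71.3 under WT. The replicates of Tigit lay close together, and its log2 fold change was -0.63 (SE 0.10, edgeR adjusted p = 0.000541).

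Cd200 occupies bases 45382135 to 45409053 of chromosome 16 (minus strand). Its FPKM was 14.9 and 15.7 in the KO-labelled in vitro libraries, against 21.7 and 32.2 in the WT-labelled ones. The groups did not overlap, and the WT-labelled replicates were the less alike. The change was -0.79 on the log2 scale (SE 0.15, edgeR adjusted p = 0.00225). Without WT replicate 2 it was -0.47, still past the threshold.

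Ctla4 was the member that rose in vitro, from a very low level. It occupies bases 60887000 to 60915832 of chromosome 1 (plus strand). It had 62 and 88 counts under KO, against 50 and 46 under WT, which is 1.5 and 1.74 FPKM against 0.894 and 1.21. It rose by 0.68 on the log2 scale (SE 0.24, edgeR adjusted p = 0.0480). The call was marginal and was lost in 7 of 13 alternatives, among them DESeq2 (adjusted p = 0.176) and leaving out KO replicate 1 (0.0759), KO replicate 2 (0.196) or WT replicate 1 (0.319).

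The same question was put in vivo to uncultured agonist-selected DN cells. Of the 6 members 4 fell and none rose past the threshold, where 0.821% of 10227 tested genes fell and 0.284% rose by the same test, 1.10% together. The median of the 6 was -0.99, beside 0.00 over all tested genes. Both KO-labelled libraries lay below both WT-labelled ones at 5 members, against 21.4% of all tested genes, and above them at 0, against 22.0%. Groups did not overlap at those 5, and at 43.4% of all tested genes. The 4 that fell, Pdcd1, Lag3, Tigit and Cd160, also fell in vitro. Falls past the threshold in both systems were found at 0.320% of the 9364 genes tested in both. Here too the choice of members with earlier results known means that the shares do not measure an excess. In bulk libraries such as these, fewer cells that carry a transcript and less transcript per cell cannot be told apart.

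**Figure D2:**
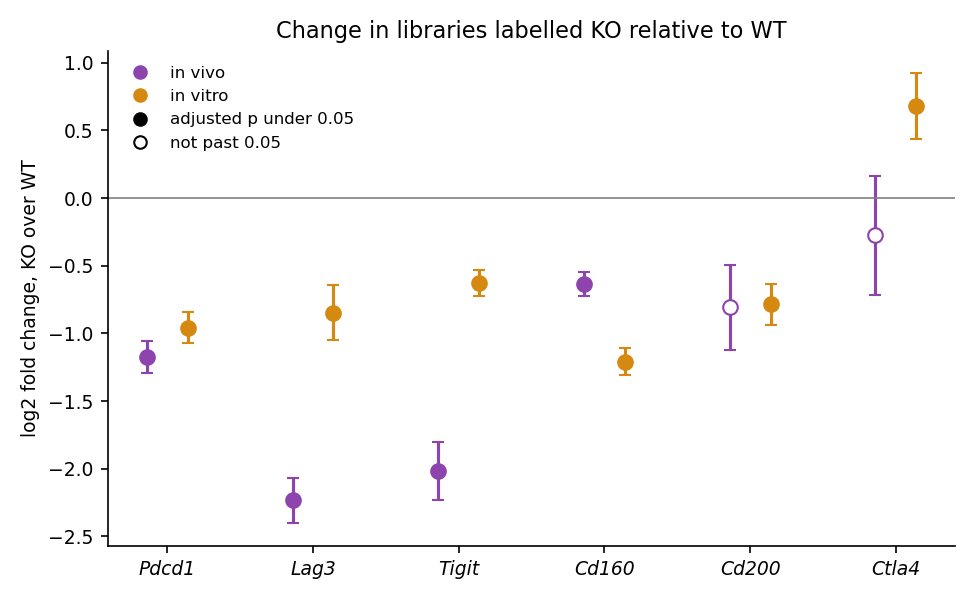
Log2 fold change of the KO-labelled over the WT-labelled libraries (vertical axis) for the 6 genes, in vivo and in vitro, with bars of 1 SE and filled points where the edgeR adjusted p was under 0.05. Lag3 and Tigit fell to -2.23 and -2.02 in vivo, against -0.85 and -0.63 in vitro.

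Lag3 had the lowest log2 fold change of the 6 in vivo. It had 88 and 100 counts under KO, against 428 and 494 under WT, or 2.73 and 2.96 FPKM against 12.1 and 14.6. The replicates were close and the groups far apart, with a fitted level 4.71-fold higher in the WT-labelled libraries (edgeR). The log2 fold change was -2.23 (SE 0.17, n = 2 per group, edgeR adjusted p = 0.0179). Of the 10227 tested genes 35, Lag3 included, had a value as low or lower.

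Tigit was next. It had 83 and 96 counts under KO, against 323 and 431 under WT, or 5.91 and 6.53 FPKM against 21.002 and 29.1. The log2 fold change was -2.02 (SE 0.21, edgeR adjusted p = 0.0219). The WT-labelled pair differed 1.39-fold, and both lay above the KO-labelled pair.

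Pdcd1 stayed the most abundant of the 6 in vivo, at 77.2 and 71.5 FPKM under KO, against 156 and 178 under WT. The groups were clearly apart, and the log2 fold change was -1.18 (SE 0.12, edgeR adjusted p = 0.0185). Cd160 had 29.9 and 29.1 FPKM under KO, against 44.9 and 46.1 under WT, the tightest replicates of any member. Its log2 fold change was -0.63 (SE 0.09, edgeR adjusted p = 0.0393).

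These 4 in vivo calls depend on single libraries more than their values do. Without WT replicate 2 the adjusted p was 0.0587 for Pdcd1, 0.0547 for Lag3, 0.0694 for Tigit and 0.112 for Cd160, in a fit that called 7 genes in all instead of 113. Without KO replicate 1 it was 0.0712 for Pdcd1, 0.0676 for Tigit and 0.204 for Cd160, and without KO replicate 2 it was 0.125 for Cd160. With 1 library left out, the log2 fold changes ranged from -1.27 to -1.07 for Pdcd1, from -2.36 to -2.09 for Lag3, from -2.23 to -1.76 for Tigit and from -0.66 to -0.60 for Cd160.

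Cd200 and Ctla4 did not pass in vivo. Cd200 had 5.21 and 9.76 FPKM under KO, against 10.6 and 15.5 under WT, so the groups were separate but the replicates wide. Its log2 fold change was -0.81 (SE 0.31, edgeR adjusted p = 0.318), close to the in vitro value. Without KO replicate 2 it was -1.32 and passed (edgeR adjusted p = 0.0468), and without KO replicate 1 it was -0.43. Ctla4 had 3.32 and 8.02 FPKM under KO, against 4.92 and 8.72 under WT. The replicates of Ctla4 differed 2.42-fold under KO and 1.77-fold under WT, more than the labels did. The change of -0.28 on the log2 scale (SE 0.44, edgeR adjusted p = 0.880) was within that spread. Without KO replicate 1 or WT replicate 2 the sign turned, to 0.22 or 0.20.

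**Figure D3:**
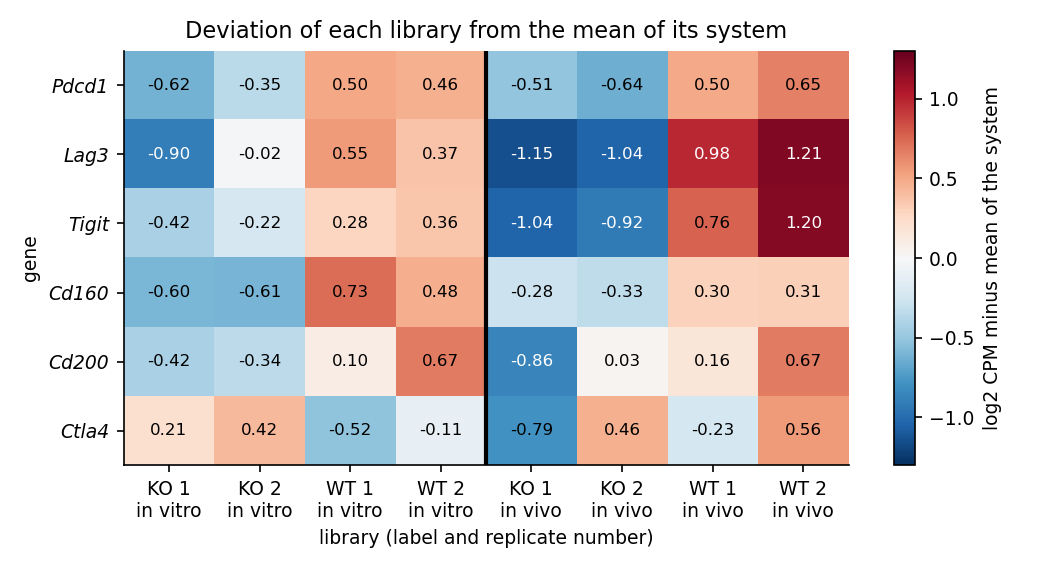
Log2 CPM (counts scaled to library size) of each gene (rows) in each library (columns) minus the mean of the 4 libraries of its system, blue below and red above. Lag3 spans -1.15 to 1.21 in vivo and -0.90 to 0.55 in vitro, while Ctla4 follows the replicate number in vivo, at -0.79 and 0.46 under KO and at -0.23 and 0.56 under WT.

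In both labels, replicate 2 had the higher Ctla4 and Cd200 in vivo, and also the higher Lag3 and Tigit. The summed markers of regulatory T cells, which express Ctla4 strongly, had the same arrangement. Foxp3, their defining factor, had 3.36 and 14.1 FPKM under KO, against 8.12 and 17.3 under WT. All 8 of 8 genes of that list were tested in vivo and 0 passed with edgeR, 1 having an unadjusted p under 0.05 (Ikzf2, which passed with DESeq2). Their summed FPKM was 96.1 and 151 under KO, against 135 and 199.6 under WT. Cd4 was likewise at 22.8 and 78.4 FPKM under KO, against 26.8 and 55.0 under WT. In vitro Foxp3 had 24 and 34 counts under KO, against 41 and 35 under WT, and the summed list was 108 and 107 FPKM, against 159 and 164. Of its 6 tested genes in vitro 1 rose (Nrp1) and 2 fell, Ikzf2 and the interleukin-2 receptor chain Il2ra. Over all genes tested in vitro 20.1% rose and 17.7% fell. The part of these markers in the members' values was not tested.

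**Figure D4:**
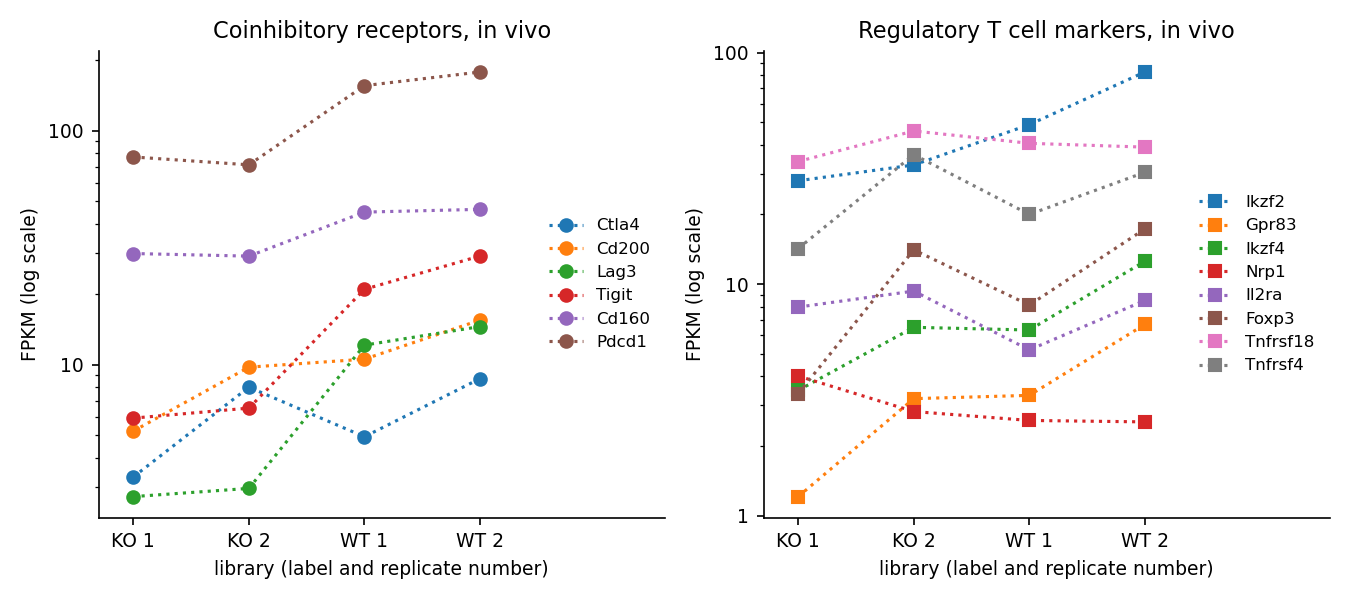
FPKM (log scale) in the 4 in vivo libraries, for the 6 coinhibitory receptors (left) and the 8 regulatory T cell markers (right), with dotted lines that only join points of 1 gene. Foxp3 is at 3.36 and 14.1 under KO and 8.12 and 17.3 under WT. Foxp3 and Ctla4 are higher in replicate 2 of both labels, and their labels overlap. Lag3, Tigit, Cd160, Pdcd1 and Cd200 separate by label, though Lag3, Tigit and Cd200 are also higher in replicate 2 of both labels.

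Markers of other cell types were set beside the labels too, and double-positive and B cell genes were higher in sum in both KO-labelled in vivo libraries. The summed FPKM of 9 double-positive thymocyte genes was 131 and 146 under KO, against 80.5 and 94.0 under WT, with 8 tested and 0 past the threshold. At an unadjusted p under 0.05 there were 6 of these, and with DESeq2 4 passed (Arpp21, Cd8b1, Dntt and Rag1), 0 with limma. That of 6 B cell genes was 25.8 and 18.3 under KO, against 14.03 and 4.37 under WT, with 4 tested and 0 past the threshold (3 at an unadjusted p under 0.05, and 1 with DESeq2). The 7 listed of 8 myeloid and dendritic genes summed to 132 and 24.4 under KO, against 35.9 and 17.3 under WT, with 0 of 4 tested past the threshold, unadjusted or with DESeq2, and the macrophage lysozyme gene Lyz2 had 109 FPKM in KO replicate 1. Innate-like T and NK genes summed to 979 and 944 under KO, against 969 and 772 under WT, with 0 of 6 tested past the threshold (2 unadjusted, and 2 with DESeq2). Over all genes tested in vivo 0.284% rose and 0.821% fell with edgeR. In the follicular helper list, whose cells carry much PD-1, 1 of 5 fell in vivo, the coactivator gene Pou2af1 (-1.68, SE 0.15). Il21, of opposite sign (1.57, SE 0.38, edgeR adjusted p = 0.131), passed with DESeq2, and 2 genes had an unadjusted p under 0.05. That list summed to 23.5 and 19.7 FPKM under KO, against 28.1 and 30.4 under WT. Of the γδ T cell list 3 of 7 genes were listed and tested in vivo and 0 passed. The 2 with an unadjusted p under 0.05 had opposite signs, Sox13 (1.13, SE 0.24), which passed with DESeq2, and Blk (-1.08, SE 0.38). The γδ list had sums of 113 and 68.5 under KO, against 120 and 76.1 under WT. Of the early DN list 1 of 5 tested fell in vivo, the stem cell factor receptor gene Kit (-2.05, SE 0.28). At an unadjusted p under 0.05 there were 3, and with DESeq2 the same number passed, the others being Notch3 (1.35, SE 0.37) and Spi1 (1.98, SE 0.66), of opposite sign. The list had sums of 24.0 and 18.5 under KO, against 20.8 and 30.8 under WT. Over all genes tested in vitro 20.1% rose and 17.7% fell, shares that stand beside the in vitro counts that follow. In vitro the double-positive list summed to 38.3 and 35.0 FPKM under KO, against 30.2 and 35.5 under WT, where 3 of 6 tested rose and 2 fell. The B cell genes Cd79a and Cd79b, the 2 tested, both rose in vitro, and that list summed to 5.06 and 5.76 under KO, against 2.95 and 2.85 under WT. The stromal list summed to 29.8 and 28.4 under KO, against 15.7 and 17.5 under WT, and its 2 tested genes, Epcam and Pecam1, rose. In vivo that list summed to 20.3 and 20.5 under KO, against 22.0 and 26.5 under WT. Of the early DN genes in vitro Kit and Notch3 rose and Il2ra fell. The single innate-like gene tested in vitro, Il2rb, rose (0.91, SE 0.08), and in the follicular helper list Sh2d1a rose and Pou2af1 fell. The part of these cells in the result was not tested.

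The size of the change differed between systems for 3 of the 6 members, where 16.4% of 9364 genes passed the same test over all 8 libraries (6.57% with a higher and 9.81% with a lower value in vivo). Lag3 and Tigit fell further in vivo than in vitro, by a difference of -1.35 (SE 0.34, edgeR adjusted p = 0.0212) and -1.36 (SE 0.22, edgeR adjusted p = 0.00298) on the log2 scale. Cd160 fell less in vivo, with a difference of 0.60 (SE 0.14, edgeR adjusted p = 0.0154). The Tigit difference held in 15 of 15 alternatives. The Lag3 and Cd160 differences lost their calls in 4 of 15 each, all of them fits with 1 library left out, at adjusted p from 0.0510 to 0.0688 and from 0.0549 to 0.0870. Without KO in vitro replicate 2 the Lag3 difference was -0.84. Pdcd1 differed by -0.19 (SE 0.16, edgeR adjusted p = 0.452), Ctla4 by -0.92 (SE 0.57, edgeR adjusted p = 0.298) and Cd200 by 0.01 (SE 0.37, edgeR adjusted p = 0.989), none of which passed. The cells, the culture and the sequencing provider (BGI Genomics in vivo, Novogene in vitro) all change with the system and cannot be told apart.

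Levels per gene length ordered the 6 genes alike in every library at the top. Pdcd1 made up 75.4% and 76.1% of their summed FPKM in the KO-labelled in vitro libraries and 78.3% and 77.2% in the WT-labelled ones. In vivo its share was 62.1% and 55.9% under KO, against 62.5% and 61.0% under WT. The sum of all 6 was 328 and 391 FPKM under KO in vitro, against 699 and 688 under WT. In vivo it was 124 and 128 FPKM under KO, against 249.3 and 292 under WT. Cd160 took the largest share after Pdcd1 in vivo, 24.0% and 22.8% under KO, against 18.0% and 15.8% under WT. Tigit held that place in vitro, at 12.5% and 12.01% under KO, against 9.66% and 10.4% under WT.

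Across the 4 groups the members differed in their order of FPKM. The deposited tables of the systems were scaled separately, so an order across systems is a description. Pdcd1 and Tigit ran from WT in vitro through KO in vitro and WT in vivo to KO in vivo, with each group above the next in both libraries. Cd160 was highest in WT in vivo (mean 45.5 ± 0.87 FPKM, SD, n = 2), followed by WT in vitro (39.5 ± 4.91), KO in vivo (29.5 ± 0.54) and KO in vitro (16.8 ± 0.084), without overlap. Lag3 was highest in WT in vitro (17.3 ± 1.51), the next groups WT in vivo (13.3 ± 1.72) and KO in vitro (9.39 ± 3.95) overlapped, and KO in vivo was lowest (2.85 ± 0.16). For Cd200 KO in vitro (15.3 ± 0.61) and WT in vivo (13.0 ± 3.501) overlapped between WT in vitro (27.0 ± 7.48) above and KO in vivo (7.49 ± 3.22) below. Ctla4 was lowest in WT in vitro (1.05 ± 0.22) and KO in vitro (1.62 ± 0.17), while KO in vivo (5.67 ± 3.32) and WT in vivo (6.82 ± 2.69) overlapped above both.

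Over all genes tested in vitro 20.1% rose and 17.7% fell, shares that also stand beside the ligand and costimulatory lists below. Among 14 genes listed as other coinhibitory receptors, the ligand gene Tnfrsf14 included, 6 were tested in vitro, of which 3 rose and 1 fell. The median was 0.25, beside 0.00 for all genes. Those that rose were Vsir, which encodes VISTA (0.61, SE 0.09), Btla, a receptor for HVEM (0.43, SE 0.10), and Tnfrsf14, which encodes HVEM itself, the ligand of CD160 and BTLA (1.12, SE 0.33). Tnfrsf14 had 164 and 176 FPKM under KO, against 41.2 and 118 under WT, so its WT-labelled replicates differed widely, and with DESeq2 its adjusted p was 0.231. Without WT replicate 1 its value was 0.54 and without WT replicate 2 it was 2.07. Cd72, an inhibitory lectin known mainly from B cells, fell (-1.36, SE 0.20), at 0.890 and 1.12 FPKM under KO, against 2.45 and 2.84 under WT. In vivo 8 of the 14 were tested and 0 passed with edgeR, 3 having an unadjusted p under 0.05. The same number, Btla, Cd72 and Cd244a, passed with DESeq2 and 0 with limma. Cd72 was at -0.98 (SE 0.17, edgeR adjusted p = 0.0620) and Cd244a, a SLAM-family receptor, at 0.99 (SE 0.16, edgeR adjusted p = 0.0588).

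Of 13 genes listed as ligands, the receptor gene Cd200r1 included, 4 were tested in vitro, of which 1 fell and none rose. That was Pdcd1lg2, which encodes the PD-1 ligand PD-L2 (-0.97, SE 0.12), at 6.87 and 6.44 FPKM under KO, against 12.9 and 13.6 under WT. In vivo 8 were tested and 0 passed with edgeR (4 unadjusted), 1 with DESeq2, Cd200r1, and 0 with limma. Cd200r1, the receptor for CD200, had 3.31 and 5.11 FPKM under KO, against 7.41 and 14.1 under WT (-1.36, SE 0.34, edgeR adjusted p = 0.142). Without WT replicate 2 its value was -0.82, and without WT replicate 1 it was -1.75 and passed. The MHC class II chain gene H2-Ab1, whose product with H2-Aa binds LAG-3, had 57.5 and 16.4 FPKM under KO, against 20.1 and 5.23 under WT, and like Lyz2 it was highest in KO replicate 1.

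All 11 costimulatory partners were tested in both systems. In vitro 5 rose and 1 fell, with a median of 0.27, and in vivo 0 passed with edgeR (3 unadjusted), with a median of -0.01. With DESeq2 2 passed in vivo, Slamf6 and Tnfrsf9, and with limma 0. The CD28-family receptor Icos rose in vitro (0.54, SE 0.09), as did Cd4 (0.72, SE 0.09), the SLAM receptor Cd84 (0.64, SE 0.12) and the adhesion receptor Cd2 (0.29, SE 0.09). Cd4 lost its call with all 8 libraries in 1 edgeR fit (adjusted p = 0.275). Cd2 lost its call in 6 of 14 alternatives. These were limma on log2(FPKM + 1) and on log2(FPKM + 0.1), all 8 libraries in 1 fit and a replicate block. The others were the fits without KO replicate 1 and without WT replicate 2. Tnfrsf9, which encodes the activation-induced receptor 4-1BB, fell in vitro (-0.59, SE 0.10). In vivo Tnfrsf9 was at -0.98 (SE 0.21, edgeR adjusted p = 0.105) and Slamf6 at -0.80 (SE 0.17, edgeR adjusted p = 0.103).

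In vitro 20.1% of all tested genes rose and 17.7% fell. Of 16 signalling genes downstream of the receptors 8 rose in vitro and none fell, with a median of 0.26. Among them was Dok2, an adaptor that restrains Ras signalling (1.07, SE 0.08), at 64.7 and 64.4 FPKM under KO, against 29.7 and 33.0 under WT. Rasa1, a Ras GTPase-activating protein (0.65, SE 0.10), Sh2d1a, which encodes the SLAM adaptor SAP (0.50, SE 0.11), the kinase gene Lck (0.41, SE 0.10) and the Csk-binding adaptor gene Pag1 (0.31, SE 0.08) rose too, the last except without WT replicate 1. In vivo 0 of the 16 passed with edgeR, with a median of 0.02. Pag1, at 0.52 (SE 0.11, edgeR adjusted p = 0.109), was the 1 gene with an unadjusted p under 0.05 and the 1 that passed with DESeq2, while 0 passed with limma. Among 11 genes of receptor traffic and turnover 2 rose in vitro and none fell, Lrba, which protects CTLA-4 from degradation (0.38, SE 0.09), and Trat1, which helps CTLA-4 reach the surface (0.44, SE 0.13). Both lost their calls without KO replicate 1 and without WT replicate 1, and Trat1 was at 0.24 without WT replicate 1 and at 0.67 without WT replicate 2. In vivo 0 of the 11 passed with edgeR, unadjusted or adjusted, with DESeq2 or with limma.

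Of 27 transcription factor genes known to act on these receptors, 21 were tested in vitro, where 9 rose and 5 fell. Among all genes tested in vitro 20.1% rose and 17.7% fell. Nr4a2, an orphan nuclear receptor induced with PD-1, fell in vitro (-1.67, SE 0.08), at 33.1 and 34.7 FPKM under KO, against 109.9 and 110.3 under WT. It also fell in vivo (-1.75, SE 0.22, edgeR adjusted p = 0.0362), at 5.78 and 8.02 FPKM under KO, against 19.3 and 26.7 under WT. The in vivo call was lost without KO replicate 1 and without WT replicate 2. Nr4a3 fell in vitro (-1.21, SE 0.10), and Egr3 (1.69, SE 0.09), Runx3 (2.35, SE 0.21) and the E protein inhibitor Id2 (1.89, SE 0.19) rose. Runx3 was low in vitro, at 1.78 and 2.10 FPKM under KO, against 0.358 and 0.428 under WT. Under alternatives its value ranged from 1.08 to 2.47. In vivo 26 were tested and 2 fell, Nr4a2 and Id3 (-0.82, SE 0.12, edgeR adjusted p = 0.0471). An unadjusted p under 0.05 was found at 9 of the 26, and at 1445 of all 10227 tested genes. With DESeq2 4 passed in vivo, Id3, Ikzf2, Nr4a2 and Tox2, and with limma 1. Id3 lost its call in 8 of 14 alternatives, also without KO replicate 1, KO replicate 2 or WT replicate 2. Tox2 was at 0.71 (SE 0.15, edgeR adjusted p = 0.109), Ikzf2 at -1.12 (SE 0.25, edgeR adjusted p = 0.117) and Tox at -0.34 (SE 0.10, edgeR adjusted p = 0.190) in vivo. Ikzf2 was at -0.69 without WT replicate 2, and at -1.45 without WT replicate 1, where it passed.

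The genes next to the members were read for shared changes. Lag3 lies 16139 bases from Cd4 and 1975 bases from Ptms, which encodes parathymosin. While Lag3 fell, Cd4 rose in vitro, and Ptms had 26.8 and 37.6 FPKM under KO, against 31.6 and 39.7 under WT. In vivo Ptms was at 47.2 and 56.0 FPKM under KO, against 75.0 and 82.5 under WT (-0.62, SE 0.12, edgeR adjusted p = 0.0820). Ctla4 lies between the costimulatory genes Cd28 (113640 bases away) and Icos (62094 bases). Both Ctla4, by the marginal call above, and Icos rose in vitro, and Cd28 had 129.7 and 109 FPKM under KO, against 97.3 and 104 under WT. In vivo Icos was at -0.44 (SE 0.14) and did not pass with edgeR, nor did Ctla4. Cd200 is followed on the lower side by Btla, 124464 bases away, which rose in vitro where Cd200 fell. In vivo Btla was at 0.53 (SE 0.12) and Cd200 at -0.81 (SE 0.31), and neither passed with edgeR. Tigit lies 6264 bases from the zinc-finger gene Zbtb20, which rose in vitro (0.61, SE 0.14). Without WT replicate 1 its value was 0.38, and with all 8 libraries in 1 edgeR fit the call was lost (adjusted p = 0.0635). Cd160 lies 38929 bases from Gpr89, which fell in vitro (-0.46, SE 0.09, edgeR adjusted p = 0.00224). In vivo Gpr89 had 5.52 and 5.90 FPKM under KO, against 4.59 and 5.44 under WT. The nearer neighbour of Cd160, Rnf115 (7124 bases), had 22.1 and 19.7 FPKM under KO in vitro, against 20.3 and 21.4 under WT, and did not pass in either system. Neither did Fam174a, the tested neighbour of Pdcd1, at 2.96 and 3.20 FPKM under KO in vitro, against 3.32 and 3.66 under WT.

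The genes most like each member were found by Pearson's r over the 8 libraries, on log2 CPM centred within each system, among 9195 genes. These libraries share 2 labels and few replicates, so high values are common, with 59 genes above 0.95 for Pdcd1 alone, and r is a description. For Pdcd1 they were Myo1e, a class I myosin (r = 0.997), Tmem158 (0.993) and the vasopressin receptor gene Avpr1a (0.992). For Lag3 they were Lysmd2 (0.990), the MAPK feedback inhibitor Spry4 (0.987) and the lipid droplet coat gene Plin2 (0.982). For Tigit they were the cation channel gene Trpm1 (0.996), Tfcp2 (0.995) and the claudin gene Cldn10 (0.988). For Cd160 they were Ier5l (0.994), Angel1 (0.989) and Leo1 (0.985), a subunit of the PAF1 elongation complex. Ctla4 had 2 genes above 0.95 and Cd200 had 5, led by the syntaxin-binding gene Stxbp3 (0.988) and by Zfp53 (0.988). A high r does not give the size of a change. Tfcp2 had log2 fold changes of -0.18 in vitro and -0.49 in vivo, beside -0.63 and -2.02 for Tigit. With edgeR Tfcp2, Plin2, Leo1, Stxbp3 and Zfp53 passed in neither system. Spry4, Ier5l and Angel1 fell past the threshold in vitro only. Myo1e, Tmem158, Avpr1a, Lysmd2, Trpm1 and Cldn10 did so in both. Among the members themselves r was highest for Lag3 with Tigit (0.973) and for Pdcd1 with Lag3 (0.945), and lowest for Ctla4 with Cd160 (-0.36).

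**Figure D5:**
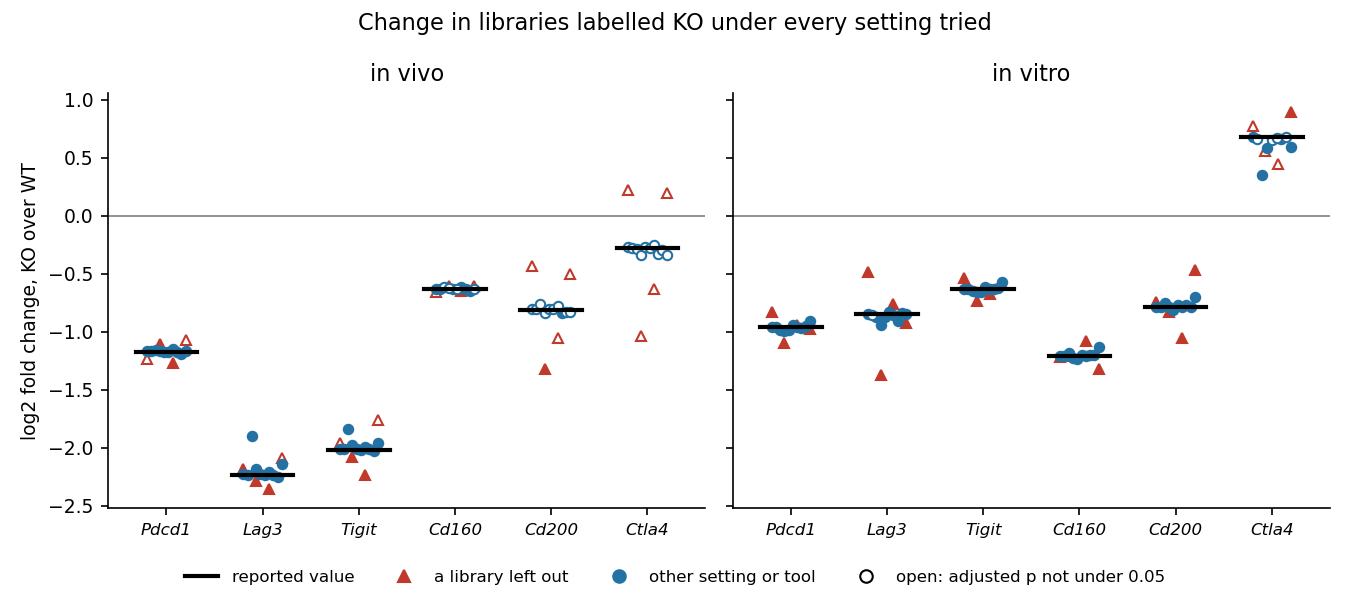
Log2 fold change of KO-labelled over WT-labelled libraries (vertical axis) for each gene, in vivo (left) and in vitro (right), as reported (bar), with 1 library left out (triangles) and under other settings or tools (circles), open where the adjusted p was not under 0.05. Pdcd1, Lag3, Tigit, Cd160 and Cd200 stay below 0 in every fit of both systems, and Ctla4 turns to 0.22 and 0.20 in vivo in 2 fits.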

How the data were processed

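The authors deposited a raw count and an FPKM value for each gene and library. Per the submitters' processing notes, the tools were Trim Galore 0.4.4, RSEM, Bowtie2, Subread, featureCounts and DESeq2, with genome build mm10; their roles are not stated. The annotation and strand setting are not given here. There are 12133 listed genes in vitro and 12665 in vivo, with no mean count below 5, so low genes are absent from them. Per the labels' protocols, TRIzol was used to isolate total RNA.

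Counts were tested with the two-sided quasi-likelihood test of edgeR 4.0.16 (R 4.3.3, TMM), on 4 libraries per system, or on all 8 for the difference between systems. Replicate number was not in the model. A gene was kept when at least 2 libraries reached 1 FPKM, and p-values were adjusted over all kept genes. All 6 members were kept in both systems, Ctla4 with 1 WT-labelled in vitro library under 1. The SE was derived from the log2 fold change and the F statistic. Ratios and shares use the deposited FPKM. The fits were tested on simulated data. Counts of same-group replicates lay further apart than sampling noise, with chi-square values of 9.40 to 19.1 per degree of freedom.

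The members and all gene lists were chosen with earlier results of these data known. Genes named besides the members are drawn from up to 5 per list and system with the smallest adjusted p, the nearest protein-coding gene on each side (GENCODE M21), and the 3 most alike genes per member. Any further gene, such as a cell type marker, was chosen after its values were seen. Alternatives were RLE size factors, library totals, other filters, limma 3.58.1 on log2(FPKM + 1), log2(FPKM + 0.1) or log2(TPM + 1), DESeq2 1.42.0, a model with a replicate block, and fits without each library, in which a single remaining library is taken to vary as the other groups do. No group had enough libraries for an outlier test.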

Additional observations from a re-analysis of the deposited data

Results flagged for a closer look

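The change in the KO-labelled libraries differed between systems for 3 of 6 members and 16.4% of all 9364 genes tested, by the edgeR test of the difference over all 8 libraries (in vivo minus in vitro, log2 scale). The differences were -1.35 for Lag3, -1.36 for Tigit and 0.60 for Cd160. Lag3 and Tigit fell in both systems but further in vivo, and Cd160 fell in both but further in vitro.

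Of the 42 other named pathway genes tested in both systems 14 passed the same test. These genes were picked for their small adjusted p within a system, so the count is not set against the share over all genes. Among the receptors and ligands the difference was -1.58 for Cd200r1, -0.95 for Icos, -0.93 for Slamf6, -0.71 for Cd84 and 1.31 for Pdcd1lg2. Among the signalling genes it was -0.90 for Dok2, -0.59 for Rasa1 and -0.56 for Sh2d1a. Among the transcription factors it was -2.16 for Runx3, -1.67 for Id2, -1.58 for Egr3, -1.56 for Id3, -0.61 for Tox and 0.86 for Tox2. Id3 changed by -0.82 in vivo and 0.77 in vitro, both past the threshold. The call was lost in 7 of 15 alternatives for Rasa1, 6 for Sh2d1a, 4 for Cd84, 3 for Tox2 and 1 for Slamf6, and in 4 of 14 for Cd200r1. The system, the culture and the sequencing provider change together, and their parts cannot be told apart.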

How the results depend on the processing

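Of 256 values of the members under alternatives, 214 kept their direction and their side of the threshold. The 5 members other than Ctla4 kept their direction in every alternative within each system. In vitro Lag3 lost its call with DESeq2 (-0.86), and Ctla4 lost it with DESeq2 (0.66), without a filter (0.65), with all 8 libraries in 1 fit (0.68), with library totals only (0.68) and in 3 of the 4 fits that leave out a library, which ranged from 0.45 to 0.89. In vivo Cd160 lost its call with limma on log2(FPKM + 1) (-0.61), on log2(FPKM + 0.1) (-0.62) and on log2(TPM + 1) (-0.63), with a mean FPKM of at least 3 (-0.63) and in 3 of the 4 fits that leave out a library, which ranged from -0.66 to -0.60. Leaving out a library gave -1.27 to -1.07 for Pdcd1, -2.36 to -2.09 for Lag3, -2.23 to -1.76 for Tigit, -1.32 to -0.43 for Cd200, which passed without KO replicate 2, and -1.04 to 0.22 for Ctla4, which turned to 0.22 without KO replicate 1 and 0.20 without WT replicate 2. For the difference between systems, leaving out a library gave -1.74 to -0.84 for Lag3, 0.46 to 0.72 for Cd160, -1.69 to -0.43 for Ctla4, which passed without in vivo KO replicate 2, and -0.51 to 0.39 for Cd200. The Cd200 difference, near 0, also changed sign with limma on log2(FPKM + 1) (-0.00469), a mean FPKM of at least 3 (-0.000980) and library totals (-0.0291), and on leaving out in vitro KO replicate 1 (-0.05) or WT replicate 2 (-0.31), or in vivo KO replicate 2 (-0.51) or WT replicate 1 (-0.23). The cause was not tested.

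The count of genes called in vivo, 113, was 505 with DESeq2, 68 with limma on log2(FPKM + 1), 75 on log2(FPKM + 0.1), 45 on log2(TPM + 1), 48 with a mean FPKM of at least 3 (fewer genes tested), 545 with all 8 libraries and 7 to 279 on leaving out a library. The lowest, 7, was without WT replicate 2, and it was 21 without KO replicate 1, 191 without WT replicate 1 and 279 without KO replicate 2. For the difference 1534 became 533 to 1816 on leaving out a library, lowest without in vitro WT replicate 1. In vitro the split of 1940 risen and 1709 fallen became 1924 and 1116 with TPM and 1717 and 1868 with limma on log2(FPKM + 1). In vivo the split of 29 and 84 was 260 and 245 with DESeq2, 266 and 279 with all 8 libraries and 193 and 86 without KO replicate 2. The library totals and TPM settings were chosen after seeing the data.

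The labels do not say that a replicate number marks a shared animal or day. Between the labels, the difference of replicate 1 from replicate 2 correlated at 0.46 across genes in vivo and at -0.31 in vitro. With the replicate block the in vivo count was 1078 (607 risen, 471 fallen), Cd200 passed in vivo (-0.84, adjusted p = 0.000878), the difference for Ctla4 passed (-0.96) and that for Cd200 was -0.0460.

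Of 1222 values of other named genes 1075 kept direction and side, 88 lost and 59 gained a call. Depth limits Ctla4 most, at 46 to 88 counts per library in vitro.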
